A study of Macaca mulatta with 13 samples.

Results

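The proteasome is the large protease that degrades proteins tagged with ubiquitin. Its genes were followed here in 13 old male rhesus monkeys (Macaca mulatta), in a large thigh muscle, the vastus lateralis. Genes were taken when a probe set of the array carried exactly 1 symbol and that symbol was PSMA, PSMB, PSMC, PSMD or PSME followed by a number. This gave 27 genes on 53 probe sets, out of 14132 genes with such a probe set, and the brightest probe set stood for each gene. The brighter 50% of all probe sets were tested, and 26 of the 27 genes were among them. Another 16 symbols of the same families, among them PSMB9, PSMD14 and PSME1, were not analysed here.

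The study compared a control diet with calorie restriction (CR), in which animals receive fewer calories. There were 5 control males of 27 to 30 years and 8 CR males of 27 to 32 years, and the design text gives 18.5 years on a diet. Its wording covers both groups and is read here as the CR animals' time on restriction. Each animal gave total RNA of whole muscle for 1 one-colour array, so the number of arrays limits the precision. Nothing is known here of each animal's own age or of array batches.

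The core particle is a barrel of rings. Alpha subunits (PSMA genes) form the outer rings and gate the entrance, and beta subunits (PSMB genes) form the inner rings, where the proteolytic sites lie. The regulatory particle caps the barrel: its base holds a ring of ATPases (PSMC genes) that unfolds the substrate, and its other subunits (PSMD genes) bind and remove ubiquitin. Interferon induces alternative catalytic subunits, which give the immunoproteasome, and the PSME genes encode other activators of the core. In skeletal muscle the ubiquitin-proteasome system breaks down myofibrillar proteins, and its activity is known to rise in fasting and denervation.

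The muscle label was checked against marker genes. Of 10 muscle fibre markers, 8 had a named probe set and all 8 were bright enough to be tested. Control replicate 4 differed from the other animals in its marker genes. Its summed signal of muscle fibre markers was 307185, the lowest of 13, where other controls reached 349092 to 695977 and CR animals 405986 to 731927. Its summed signal of 7 endothelial markers was 19539, against 6968 to 14037 in other controls and 5158 to 11632 in CR animals. Adipocyte (4 of 6 markers tested), fibroblast (4 of 5) and leukocyte markers (5 of 10) were also the highest among controls in this animal. The endothelial marker KDR and the lymphocyte markers CD8A and CD79A were too dim to be tested. In whole muscle, fewer cells of a type and less RNA per cell cannot be told apart. The array of control replicate 4 also had the highest actin 3-prime over 5-prime ratio of 13, a measure of RNA quality. Since this animal stood apart from the other controls, values without it are given beside the results below.

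Between CR and control muscle, no proteasome gene passed the threshold. By limma's moderated test, Benjamini-Hochberg adjusted over all probe sets, 0 of 26 genes passed (adjusted p = 0.999 for each of them), and among all probe sets 0% were higher and 0% lower. At an unadjusted p under 0.05 there was 1 of 26 genes (3.85%), PSMC4, where all probe sets gave 2.43%. No gene had every CR animal above every control or the reverse, and over all 9812 genes tested these shares were 0.0408% and 0.0204%.

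The standard core and regulatory particle genes nonetheless lay mostly on one side. Of 21 such genes, 20 had a higher mean in CR, against 49.8% of all genes tested. Their median difference was 0.19 on the log2 scale (1.14-fold), and the median over all genes was -0.0016. Without control replicate 4, 16 of 21 were higher, against 50.6% of all genes, and the median difference was 0.087 (1.06-fold). With 3-prime over 5-prime control ratios, a measure of RNA quality, as covariates, 21 of 21 were higher and the median was 0.20. The other tested probe sets of the proteasome genes, a few from genes outside the 21, had 13 of 18 higher and a median of 0.10. Without control replicate 4 these were 9 of 18 and -0.00089, so the dimmer probe sets then had no lean. Of 13 genes with 2 or more tested probe sets, 9 had all of them in the same direction. These counts describe genes measured in the same 13 animals and are not independent votes.

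**Figure D1:**
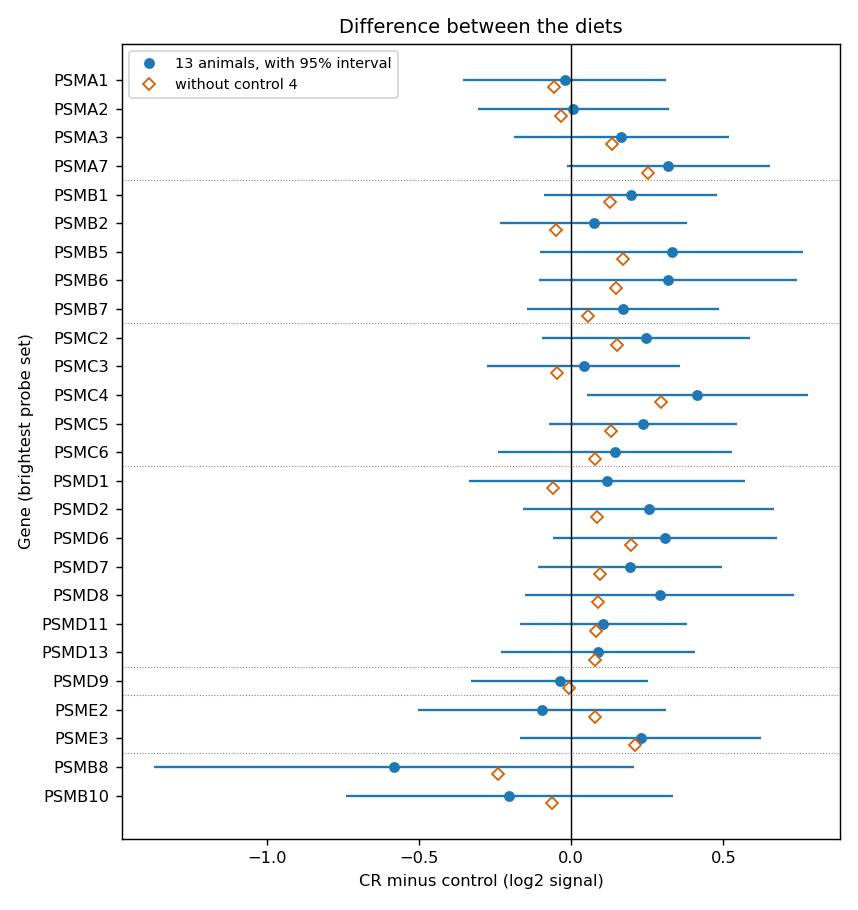
Difference between CR and control animals on the log2 scale (x axis) for the 26 genes tested (y axis, grouped by class with dotted lines). Filled circles with 95% intervals use 13 animals and open diamonds leave out control replicate 4. Most circles of the core and regulatory particle lie to the right of 0, the diamonds lie closer to 0 for most genes, and PSMB8 and PSMB10 lie to the left.

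Among the alpha subunits, 3 of 4 genes were higher in CR, with a median difference of 0.086 (0.049 without control replicate 4). PSMA7 showed the largest alpha difference. Its log2 signals in controls 1 to 5 were 14.88, 14.18, 14.82, 14.36 and 14.89, and CR animals ran from 14.60 through a median of 14.98 to 15.12. All CR animals except the lowest lay above the control mean, and 5 of 8 lay above the highest control. The difference was 0.32 ± 0.16 (SE, log2, n = 5 and 8), with a 95% interval from -0.015 to 0.65, and its second tested probe set gave 0.11. PSMA3 differed by 0.16 ± 0.17, with CR replicate 3 at 14.08 above all other animals. PSMA1 and PSMA2 were nearly level between the diets, at -0.022 ± 0.16 and 0.0064 ± 0.15. A dimmer PSMA1 probe set gave -0.36, and the other 4 of PSMA2 gave -0.21 to 0.089. Control replicate 4 was the lowest of 13 animals for 0 of these 4 alpha genes.

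All 5 standard beta subunits had a higher mean in CR, with a median difference of 0.19 (0.13 without control replicate 4). PSMB5 carries the chymotrypsin-like site. Its controls had log2 signals of 13.26, 13.59, 12.71, 12.42 and 13.29, and CR animals lay between 12.96 and 13.78 around a median of 13.40. Controls 3 and 4 were below every CR animal, whereas control 2 was above 6 of 8. This gave a difference of 0.33 ± 0.20 (SE, n = 5 and 8; interval -0.10 to 0.76), 0.25 on its other probe set and 0.17 without control replicate 4.

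PSMB6, with the caspase-like site, followed the same order of controls. Its control signals were 13.53, 13.78, 13.22, 12.66 and 13.53, and the CR animals ran from 13.25 through 13.75 to 14.15. The mean difference was 0.32 ± 0.20, or 0.15 without control replicate 4. PSMB7, with the trypsin-like site, had controls at 13.31, 13.47, 13.29, 12.78 and 13.35 and CR animals from 13.01 to 13.60 (median 13.49). Apart from control replicate 4 the controls lay within the CR range, and the difference went from 0.17 ± 0.15 to 0.055 without that animal.

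PSMB1 and PSMB2 are beta subunits without a proteolytic site. PSMB1 differed by 0.19 ± 0.13 (0.13 without control replicate 4). The PSMB2 difference of 0.073 ± 0.15 turned to -0.050 without that animal. For 5 of 5 standard beta genes the lowest of all 13 animals was control replicate 4.

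**Figure D2:**
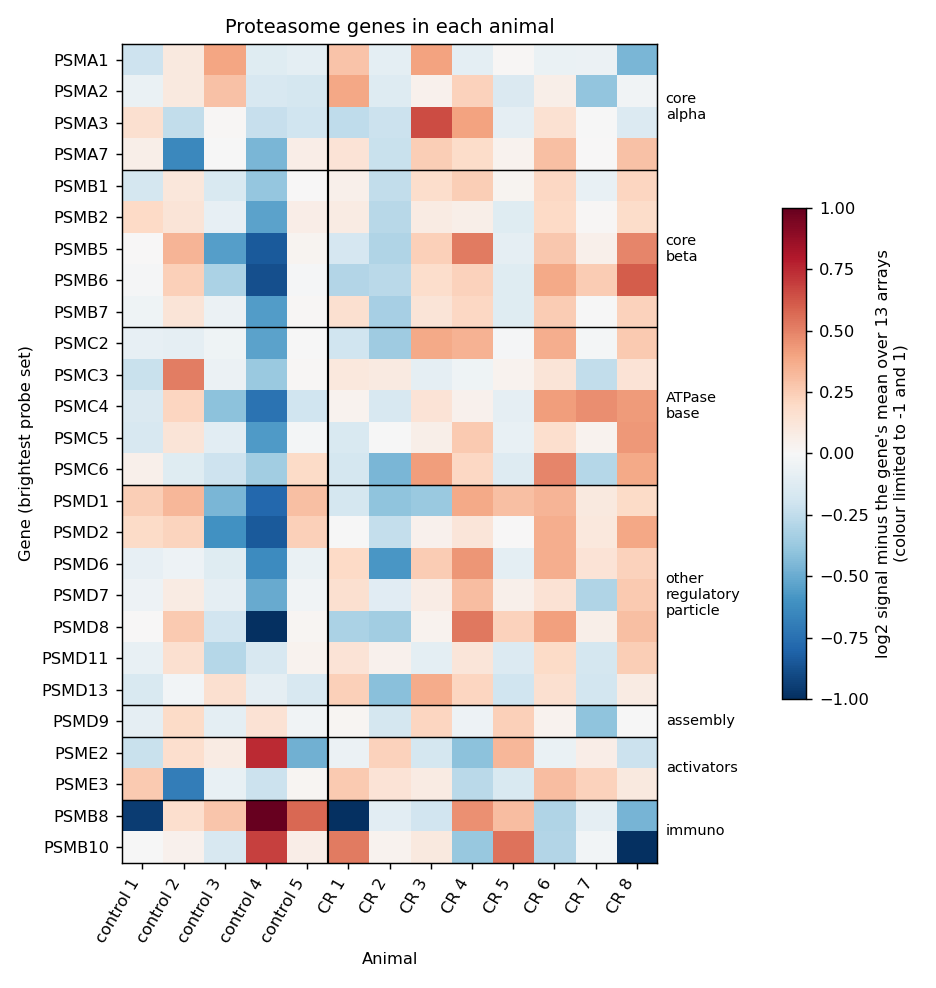
Log2 signal of each tested gene (rows, grouped by class) in each animal (columns, controls left of the vertical line), as the deviation from that gene's mean over 13 arrays. Blue is below and red above the mean, with the colour limited to -1 and 1. The column of control replicate 4 is blue for beta, ATPase and most other regulatory genes and red for PSME2, PSMB8 and PSMB10.

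The ATPase ring had a class median of 0.24 for 5 genes, all higher in CR (0.13 and 4 of 5 without control replicate 4). PSMC4 was the gene with the lowest p of the family. In controls it measured 11.32, 11.68, 11.05, 10.72 and 11.26, and in CR animals from 11.30 through 11.55 to 11.93. The control mean was exceeded by 8 of 8 CR animals, but control 2 exceeded 5 of them. The difference was 0.41 ± 0.17 (SE, n = 5 and 8; 1.33-fold, interval 0.052 to 0.78) with limma's unadjusted p = 0.0276. It was 0.29 without control replicate 4, and the other PSMC4 probe sets gave 0.12 and -0.023, so probe sets of this gene disagreed.

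PSMC2 differed by 0.25 ± 0.16 and PSMC5 by 0.24 ± 0.15, or 0.15 and 0.13 without control replicate 4. Their second probe sets gave similar values, 0.19 for PSMC2 and 0.27 for PSMC5. PSMC6 differed by 0.14 ± 0.18 (0.078 without control replicate 4), with CR replicate 2 as its lowest animal (10.80). For PSMC3 the difference was 0.040 ± 0.15, or -0.046 without control replicate 4, and control 2 had its highest signal (12.34).

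The other regulatory particle genes comprised 7 genes, all with a higher mean in CR and a median difference of 0.19 (6 of 7 and 0.084 without control replicate 4). PSMD6, a lid subunit, showed the clearest shift of CR animals against single controls. Controls measured 12.37, 12.40, 12.33, 11.82 and 12.39, and CR animals 11.87 to 12.89 with a median of 12.67. Of the 8 CR animals, 6 lay above the highest control, while CR replicate 2, at 11.87, lay below 4 of 5 controls. The difference was 0.31 ± 0.17 (SE, n = 5 and 8; interval -0.062 to 0.67), or 0.20 without control replicate 4.

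PSMD8, also of the lid, had its lowest signal in control replicate 4. Its controls were 12.09, 12.35, 11.89, 11.09 and 12.11 and its CR animals 11.73 to 12.61 (median 12.23), with a difference of 0.29 ± 0.21 that became 0.087 without control replicate 4. PSMD2, which binds ubiquitin-like domains of shuttle proteins, had 2 low controls: its signals were 12.86, 12.90, 12.07, 11.84 and 12.91 in controls and 12.44 to 13.06 in CR (median 12.75). Controls 1, 2 and 5 lay within the CR range, and the difference was 0.25 ± 0.20, or 0.084 without control replicate 4. PSMD1, the companion scaffold of the base, differed by 0.12 ± 0.21, and by -0.059 without that animal. The lid subunits PSMD7, PSMD11 and PSMD13 differed by 0.19 ± 0.14, 0.11 ± 0.13 and 0.088 ± 0.15. Without control replicate 4 these became 0.096, 0.083 and 0.078. The lowest animal was control replicate 4 for PSMD7, control 3 for PSMD11 and CR replicate 2 for PSMD13.

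PSMD9, named with this family, encodes a chaperone that helps to assemble the base and is absent from the finished particle. It differed by -0.038 ± 0.14 (SE, n = 5 and 8), and its other probe sets by 0.0079 and -0.097. Its signal did not dip in control replicate 4, which measured 11.09 where the controls averaged 10.98 ± 0.14 (SD).

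The animals differed in the same way across most standard genes. For 14 of 21 standard genes control replicate 4 was the lowest of 13 animals, whereas over all genes tested it was the lowest for 16.7% and the highest for 19.3%. Its median deviation from the 13-array mean was -0.53 over the 21 genes, and other controls lay between -0.10 and 0.13. Among CR animals, replicate 2 was the lowest for 13 of 21 genes, with a median deviation of -0.25, and the highest median deviation was 0.26 in CR replicate 6. CR replicate 2 also had the highest summed leukocyte (4350) and adipocyte markers (45223) of all animals, and the lowest summed muscle fibre markers of its group. Its median deviation of the immunoproteasome genes was -0.037, inside the CR range of -0.79 to 0.42. CR replicate 4 had the next lowest fibre markers of its group (454372), with a median deviation of the standard genes of 0.23. CR replicate 7 had the highest fibre markers (731927), with -0.00034. Among the controls, replicate 3 had the next lowest fibre markers after replicate 4 (349092), and its median deviation of the standard genes was -0.10. The part of these marker genes in the proteasome values was not tested.

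Taken gene by gene, the standard genes varied less between animals of the same diet than genes in general. This spread does not measure the shared shift of control replicate 4 across the standard genes. Over the 21 standard genes limma's moderated residual SD had a median of 0.28 (log2), and over all genes tested, many of them dimmer, of 0.41. This moderation draws each SD towards a trend with signal. The plain SD had medians of 0.26 and 0.42 in controls, and of 0.25 and 0.37 in CR animals. The 95% intervals accordingly had a median half-width of 0.33. For 13 of 21 genes the upper bound lay below a 1.5-fold higher signal in CR, and for 0 of 21 did the lower bound reach a 1.5-fold lower one. These intervals are not adjusted for the number of genes.

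**Figure D3:**
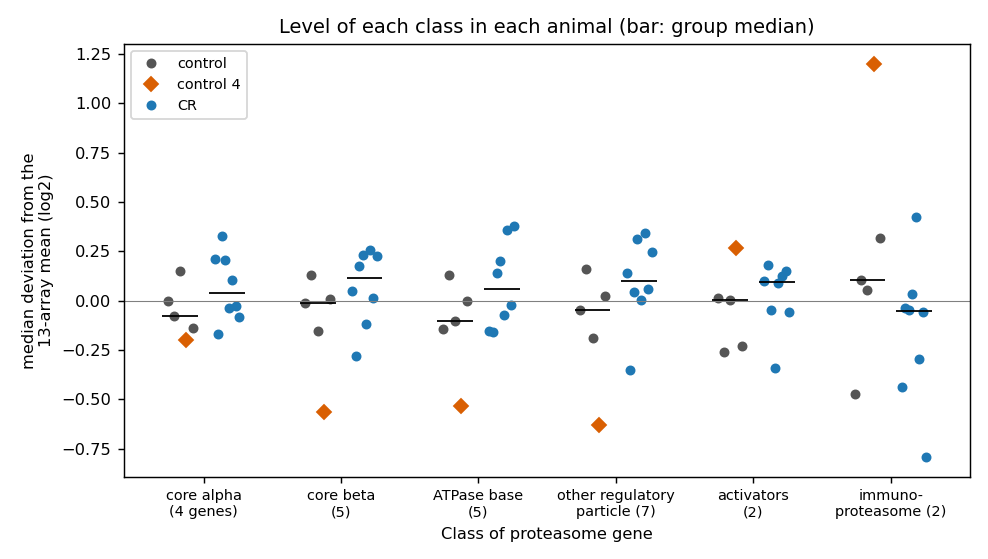
Median deviation of each class of genes from the 13-array mean (y axis, log2) in each animal, for 6 classes (x axis, with the number of genes). Grey points are controls, blue points CR animals, the orange diamond is control replicate 4, and bars are group medians. The diamond is the lowest control for the core and regulatory classes and the highest for activators and immunoproteasome.

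The immunoproteasome subunits lay on the other side. Both tested genes, PSMB8 and PSMB10, had a lower mean in CR, where 50.2% of all genes tested were lower, and neither passed. PSMB8 replaces PSMB5 in the immunoproteasome. Its controls measured 7.17, 8.28, 8.39, 9.84 and 8.69, and CR animals ran from 6.73 through 7.97 to 8.57. The value of control replicate 4 was far above all others, and control 1 was lower than 7 of 8 CR animals. The difference was -0.58 ± 0.37 (SE, n = 5 and 8; interval -1.37 to 0.21), and -0.24 without control replicate 4.

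PSMB10 replaces PSMB7. It measured 8.89, 8.94, 8.73, 9.58 and 8.96 in controls and 7.78 to 9.43 in CR animals (median 8.90). Again control replicate 4 was the highest of 13 animals, CR replicate 8 was the lowest, and the other controls lay close together inside the CR range. The difference was -0.20 ± 0.25, or -0.064 without control replicate 4, and the dimmer probe set gave 0.048.

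In control replicate 4 the standard and the inducible subunits thus diverged within 1 array. The log2 signal of PSMB8 minus that of PSMB5, taken within each animal, removes the array's scaling. It was -6.09, -5.31, -4.32, -2.58 and -4.59 in controls and -6.37 to -4.74 in CR animals, with means of -4.58 ± 1.31 (SD, n = 5) and -5.49 ± 0.56 (SD, n = 8). The value is a contrast of probe sets and gives no ratio of molecules. Controls 3, 4 and 5 lay above every CR animal, and controls 1 and 2 within their range. The means differed by -0.91 with p = 0.0948 in an exact permutation test (two-sided; adjusted p = 0.190 over the 2 pairs).

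This value moved with single animals. Without control replicate 1 it was -1.29, with adjusted p = 0.0283 in the same exact test, and without control replicate 4 it was -0.41 with adjusted p = 0.610, the ends of the range over the alternatives. For PSMB10 minus PSMB7 the means were -4.22 ± 0.57 (SD, n = 5) and -4.59 ± 0.65 (SD, n = 8). They differed by -0.37 (exact p = 0.325, adjusted p = 0.325), and by -0.12 without control replicate 4. That animal had -3.21, and the other controls -4.56 to -4.39.

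**Figure D4:**
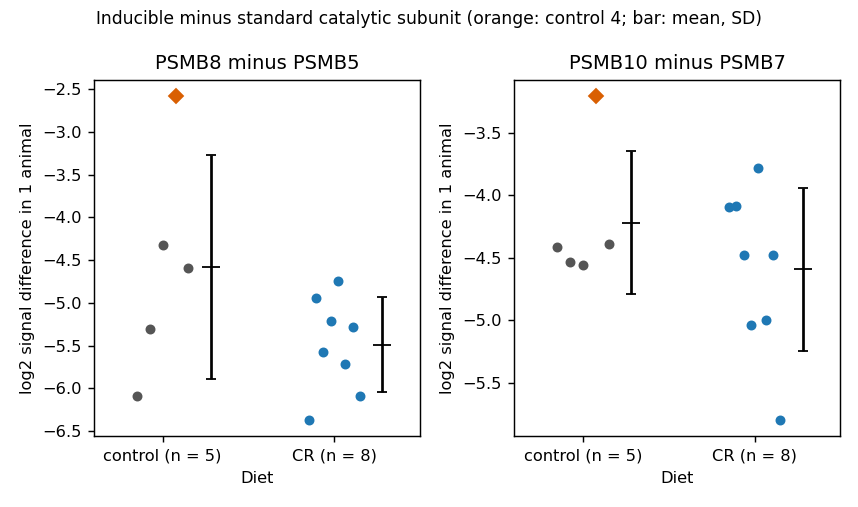
Log2 signal of the inducible minus the standard catalytic subunit (y axis) in each control and CR animal (x axis), for PSMB8 and PSMB5 (left) and PSMB10 and PSMB7 (right). Points are animals, the orange diamond is control replicate 4, and black bars give the mean and SD. The diamond is the highest point in both panels, at -2.58 and -3.21.

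The activators did not share 1 direction. PSME2, a subunit of an interferon-inducible activator of the core, measured 10.65, 11.04, 10.95, 11.62 and 10.39 in controls and 10.46 to 11.20 in CR animals (median 10.81). Control replicate 4 was the highest animal, as for PSMB8 and PSMB10, and control 5 the lowest. The difference was -0.096 ± 0.19 (SE, n = 5 and 8), and 0.077 without control replicate 4.

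PSME3, which forms a nuclear activator, differed by 0.23 ± 0.19 and by 0.21 without that animal. Without control replicate 2 the difference was 0.091, and with the RNA quality covariates 0.058. Its dim probe sets were not tested. They gave 0.86 ± 0.64 and 1.83 ± 0.98, in the same direction as the brightest one but with wider errors. The mean of all its probe sets gave 0.97. PSMB11, the thymus-specific beta subunit, was too dim to be tested in this muscle, with a mean signal of 92.9 below the limit of 107. On the log2 scale controls measured 6.23 ± 0.58 (SD, n = 5), and CR animals 6.73 ± 0.72 (SD, n = 8).

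Other genes of the pathway were taken from a list of 48, of which 36 were tested. None passed limma's test, with 21 higher (58.3%, against 49.8% of all genes) and 15 lower in CR, a median difference of 0.068 (0.031 without control replicate 4), and 3 genes at an unadjusted p under 0.05, where all probe sets gave 1.25% higher and 1.18% lower. By p, the first 3 genes on the higher side were TRIM63, UBA6 and NPLOC4. TRIM63, a ubiquitin ligase of the sarcomere, differed by 0.47 ± 0.20 (SE, log2), with 13.78, 13.93, 13.54, 13.31 and 13.37 in controls, and by 0.40 without control replicate 4. The 5 listed muscle ubiquitin ligases, TRIM63 among them, had a median difference of 0.13 with 4 of 5 higher. Without control replicate 4 their median was -0.067 with 2 of 5 higher. UBA6, a ubiquitin-activating enzyme, differed by 0.51 ± 0.24 (0.40 without that animal). NPLOC4, a cofactor of the unfoldase VCP, differed by 0.29 ± 0.17 (0.16).

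Proteins that join the proteasome, such as ubiquitin receptors and deubiquitinases, had a median difference of 0.18 with 7 of 8 genes higher in CR (0.095 without control replicate 4). After quantile normalization it was 0.086 with 5 of 8 higher. ADRM1, the ubiquitin receptor of the base, was singled out after its values were seen. Its lowest animal was control replicate 4, at 9.70, and the other controls measured 11.20, 11.15, 10.83 and 11.64. Its difference was 0.33 ± 0.26, or 0.030 without that animal. Of the core assembly factors 2 of 4 genes were higher, from -0.27 for PSMG3 to 0.20 for PSMG4. Their median was -0.011, with -0.12 without control replicate 1 and 0.12 with the RNA quality covariates as the ends over the alternatives. PSMG3 differed by -0.27 ± 0.19, and UBE3C, a ubiquitin ligase bound to the proteasome, by -0.17 ± 0.14. The 3 genes that act on the transcription of proteasome genes had a median difference of 0.10. The transcription factors NFE2L1 and NFE2L2 differed by -0.22 ± 0.18 and 0.10 ± 0.17, and NGLY1, the deglycosylase that processes NFE2L1, by 0.27 ± 0.18.

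Interferon-induced genes of antigen presentation, which share their induction with PSMB8, PSMB10 and PSME2, had 0 of 7 genes higher in CR and a median difference of -0.26. Without control replicate 4 it was -0.14 with 2 of 7 higher, and without CR replicate 8 the same values were found. With the replicate number as a block, where CR replicates 6 to 8 do not enter the difference, it was -0.039 with 1 of 7 higher. Markers of other cell types also had lower means in CR: 7 of 7 endothelial genes (median -0.50, and -0.24 without control replicate 4), 5 of 5 leukocyte genes (-0.22 and -0.043) and 3 of 4 adipocyte genes (-0.40 and -0.11). Red blood cell markers had 3 of 3 lower (-0.22 and -0.15). Fibroblast markers had 2 of 4 lower, with a median of -0.014 (0.12 without control replicate 4). Muscle fibre markers had 4 of 8 lower, with a median of 0.10 (-0.0089 without it). None passed the test, and the part of these cells in the immunoproteasome and interferon-induced values was not tested. B2M, the light chain of class I molecules, made up 89.2% of the summed signal of the 7 genes in control replicate 4. The other 6 genes summed to 5158 in that animal, the highest of 13, against 2756 to 3712 in other controls and 2290 to 4602 in CR animals. NLRC5, an activator of class I antigen presentation genes, differed by -0.46 ± 0.21 (-0.32 without that animal), and its controls measured 8.66, 8.51, 8.55, 9.28 and 8.68. TAP1 and TAP2, which flank PSMB8 in the T2T-MMU8v2.0 annotation and encode the peptide transporter, did not share the high PSMB8 signal of control replicate 4. That animal measured 9.08 for TAP1, where the control mean was 9.17 ± 0.39 (SD, n = 5), and 7.26 for TAP2, its lowest control. Between the diets both had a lower mean in CR, as did PSMB8, with differences of -0.21 ± 0.24 and -0.40 ± 0.35 (-0.23 and -0.47 without that animal).

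**Figure D5:**
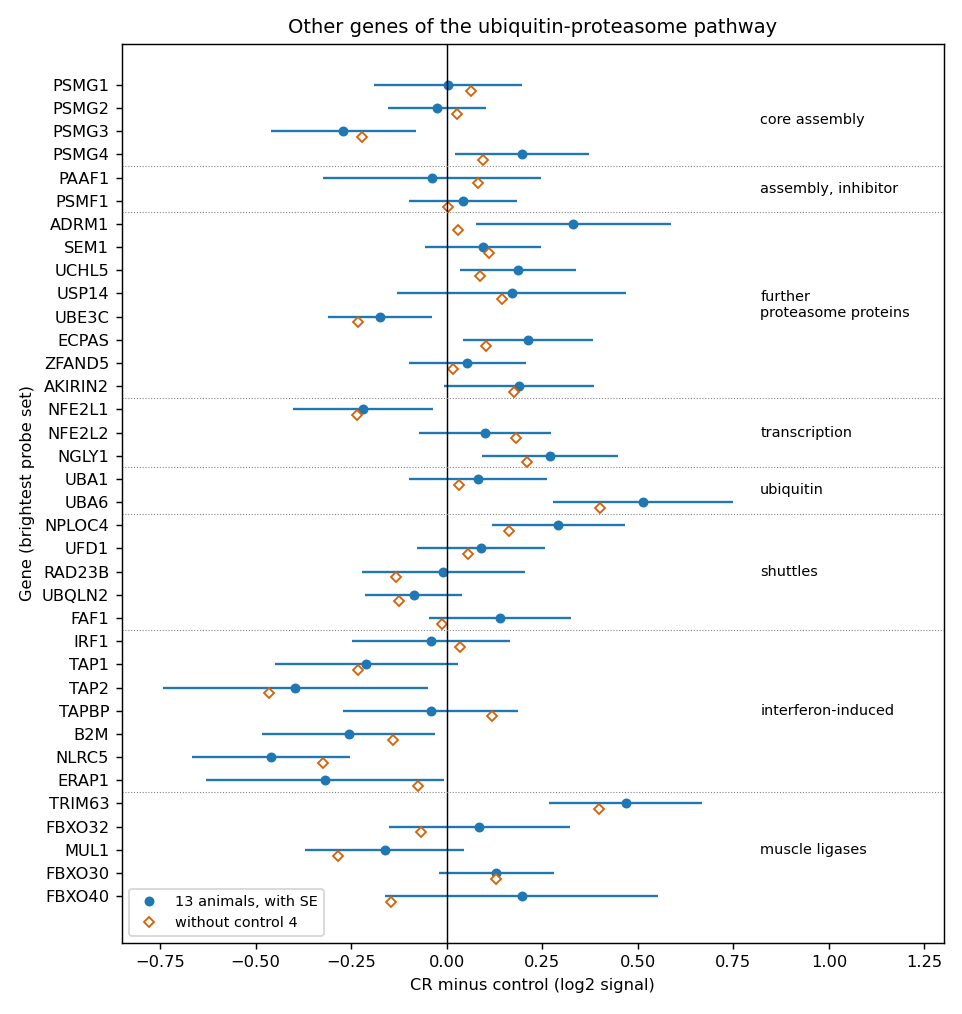
Difference between CR and control animals on the log2 scale (x axis) for the 36 other pathway genes tested (y axis, grouped by role with dotted lines). Filled circles with bars are values of 13 animals with their SE, and open diamonds leave out control replicate 4. The 7 interferon-induced genes lie left of 0 in 13 animals, and TRIM63 and UBA6 lie farthest to the right.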

How the data were processed

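Per the labels' protocols, total RNA was turned into biotinylated cRNA for Affymetrix arrays of 1 colour. The authors summarised each probe set with MAS5, per the submitters' processing notes, and the deposited table holds linear intensity values. Every array has the same 2% trimmed mean of 500.0, so no further normalization was added. After removal of 99 control probe sets, signals were floored at 1 (137 values) and log2 transformed, and the dimmer 50% by mean log2 signal were left out (mean signal under 107). The platform annotation named 24956 probe sets with 1 symbol, 361 with several and 27449 with none. Values of different probe sets are not compared as levels.

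Diets were compared in R 4.3.3 by limma 3.58.1 (two-sided moderated test with a mean-variance trend), and the threshold was a Benjamini-Hochberg adjusted p of 0.05 over 26383 probe sets. The catalytic pairs were compared by an exact permutation test over 1287 splits (smallest p 0.000777). Probe sets with several symbols (7 hold a proteasome gene) were not used. Every proteasome gene is named. Of the other pathway genes the 3 with the lowest p in each direction are named, and ADRM1, NFE2L1, NFE2L2, NGLY1, TAP1 and TAP2 were added after their values were seen. The genes, classes and lists were chosen with earlier results of these data known. The test was run on simulated data, and the share of changes it recovers at the spread of these data is not given here.

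Same-numbered animals of the 2 diets did not deviate together (r from -0.20 to 0.020), so the numbers were taken as names only. Alternatives were an offset of 16, median centring, quantile normalization, the brightest 25% or no filter, eBayes without the trend, array quality weights, 3-prime over 5-prime ratios of GAPDH and actin as covariates, the replicate block, probe sets averaged per gene, and each animal left out. The actin ratio was 2.41 (log2) in control replicate 4, the highest of 13 arrays, and 1.47 to 1.68 in the other controls. With that animal, controls had 1.75 ± 0.38 (SD, n = 5), and CR animals had 1.74 ± 0.31 (SD, n = 8). Its GAPDH ratio was 0.73, where controls had 0.58 ± 0.23 (SD, n = 5). The array quality weight of control replicate 4 was 0.48, the lowest, and the next was 0.80. Figures were drawn with matplotlib 3.10.9.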

Additional observations from a re-analysis of the deposited data

Results flagged for a closer look

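Within each diet, the lowest or highest animal was compared with its nearest neighbour relative to the range of the group, for 27 genes, 2 catalytic pairs and the medians of 8 classes. Of 74 groups examined, 6 had an animal that stood apart, where chance gives about 1 in 20, or 3.7. Control replicate 4 was that animal in 5 of them. It had the lowest control signal of PSMB7 (12.78 log2, next 13.29), of PSMC2 (13.29, next 13.73) and of PSMD6 (11.82, next 12.33). It had the highest of PSMB10 (9.58, next 8.96) and of PSMB10 minus PSMB7 (-3.21, next -4.39). CR replicate 4 had the lowest median deviation of the 2 activator genes in its group (-0.34, next -0.056).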

How the results depend on the processing

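No proteasome gene passed limma's test under any of 23 alternatives, and the lowest adjusted p of a tested gene was 0.903, without CR replicate 2. Of the 26 genes, 18 kept their direction throughout. Over the 21 standard genes the median difference lay between 0.14 and 0.20 under the 10 settings other than leaving an animal out (18 to 21 genes higher). The low end came from the replicate block, where CR replicates without a same-numbered control do not enter the diet difference. With 1 animal left out the median lay between 0.087 and 0.23 (16 to 21 higher). The median over all genes moved by less than 0.1 under each scaling. The other 8 turned direction under at least 1 alternative. PSMA2 was -0.035 after quantile normalization, -0.025 after median centring, -0.026 with array quality weights (PSMC3 -0.016, PSME2 0.00039) and -0.030 for the mean of its probe sets. PSMA1 was 0.038 with the RNA quality covariates. With the replicate block, PSMA1 was 0.089, PSMD9 0.027 and PSMB10 0.037, and the median of the standard genes was 0.14. Under the block the diet difference rests on replicates 1 to 5 of both diets, as CR replicates 6 to 8 have no same-numbered control. The block changed no call, and the numbers do not pair the animals. With 1 animal left out, the ranges were -0.080 to 0.074 for PSMA1 (above 0 without control 3 or CR 8), -0.049 to 0.080 for PSMA2 (below 0 without control 1, 4 or 5 or CR 1, 4 or 6), -0.050 to 0.14 for PSMB2, -0.046 to 0.18 for PSMC3, -0.059 to 0.22 for PSMD1, -0.074 to 0.017 for PSMD9 (above 0 without control 2 or CR 7) and -0.23 to 0.077 for PSME2. PSMB2, PSMD1 and PSME2 turned only without control 4, and PSMC3 without control 1 or 4. PSMB8 minus PSMB5 ran from -1.29 to -0.41. Of all probe sets, 0 to 1 passed higher in CR, the 1 without control 1 or without control 5 being no proteasome gene. The cause of these changes was not tested beyond the animals that were left out or, under the block, did not enter.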
